A study of Mus musculus with 8 samples.

Results

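The T cell receptor complex and the proteins that carry its first signals were followed here through 9 genes, Cd3e, Cd3d, Cd3g, Cd247, Lck, Zap70, Lat, Cd2 and Cd28, out of 24171 named genes on the arrays. They were chosen by name, and every gene was found, through 18 features in all, a feature being the short set of probes that the array holds for 1 transcript. Spleens of 4 miR-155 knockout mice (Mim1-5, Mim1-6, Mim2-2 and Mim2-3) were set against spleens of 4 wild-type mice (WT-1 to WT-4), with 1 Cy3-labelled array per spleen. The labels mark 2 animals of each genotype as female and 2 as male. Mim1-5 and Mim1-6 are the knockout females, Mim2-2 and Mim2-3 the knockout males, and the wild-type females are WT-1 and WT-3. The sources used here give neither strain, age nor the extent of the deletion, and do not describe the knockout as limited to a cell type.

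The receptor on a T cell recognises peptide on major histocompatibility molecules but cannot signal on its own. It depends on the CD3 chains, whose cytoplasmic motifs are phosphorylated by the kinase LCK. The kinase ZAP-70 then docks on these motifs and phosphorylates the adaptor LAT, on which the enzymes of the calcium and RAS branches assemble. CD2 strengthens adhesion to the antigen-presenting cell, and CD28 delivers the costimulatory signal that a naive T cell needs. MiR-155 is induced when lymphocytes are activated, and it represses transcripts that pair with its seed.

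The 2 mature strands of miR-155 are shown to identify the targeted microRNA. Both are from RefSeq on GRCm38.p6, on the plus strand at chr16:84714143-84714165 for the 5p strand and chr16:84714182-84714202 for the 3p strand, and capitals mark the seed, bases 2 to 8.
mmu-miR-155-5p: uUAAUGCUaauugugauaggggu
mmu-miR-155-3p: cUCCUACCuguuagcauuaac

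Cd3g, Cd3d and Cd3e lie side by side on chromosome 9, and their promoter windows are shown because the 3 genes are members that neighbour each other. RefSeq windows from 250 bases before to 50 bases after the start were found for 7 of the 9 genes, in 10 windows. The start sites of Cd3g and Cd3d point away from each other and are 1355 bases apart, while that of Cd3e is 27825 bases from that of Cd3d. Capitals mark matches to an ETS core (GGAAG), a RUNX motif (TGTGGT) and an E-box (CAGNTG), on either strand. The windows are chr9:44980382-44980681 (minus strand) for Cd3g, chr9:44981536-44981835 (plus strand) for Cd3d and chr9:45009562-45009861 (minus strand) for Cd3e, all on GRCm38.p6.
Cd3g: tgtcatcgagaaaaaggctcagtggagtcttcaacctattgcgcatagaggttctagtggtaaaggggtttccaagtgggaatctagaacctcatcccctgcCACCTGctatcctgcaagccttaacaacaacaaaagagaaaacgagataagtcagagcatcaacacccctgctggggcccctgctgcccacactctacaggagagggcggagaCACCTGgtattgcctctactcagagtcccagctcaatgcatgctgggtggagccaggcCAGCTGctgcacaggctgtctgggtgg
Cd3d: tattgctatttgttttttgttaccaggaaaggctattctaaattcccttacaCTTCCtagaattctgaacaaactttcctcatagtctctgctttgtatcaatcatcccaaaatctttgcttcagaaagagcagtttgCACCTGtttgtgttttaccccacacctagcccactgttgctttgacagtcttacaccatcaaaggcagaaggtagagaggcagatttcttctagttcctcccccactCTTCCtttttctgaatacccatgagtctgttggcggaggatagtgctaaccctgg
Cd3e: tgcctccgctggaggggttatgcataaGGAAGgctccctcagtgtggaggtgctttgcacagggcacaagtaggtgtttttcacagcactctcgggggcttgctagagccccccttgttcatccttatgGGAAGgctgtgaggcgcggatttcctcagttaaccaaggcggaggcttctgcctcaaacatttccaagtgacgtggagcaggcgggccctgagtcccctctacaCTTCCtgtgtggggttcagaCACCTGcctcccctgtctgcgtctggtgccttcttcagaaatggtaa

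The E-box stood in each of these 3 windows, with 3 matches for Cd3g and 1 each for Cd3d and Cd3e. The ETS core had 0 matches for Cd3g, 2 for Cd3d and 3 for Cd3e, and the RUNX motif had 0 in all 3. Over the 10 windows, 9 held the E-box, 8 the ETS core, 3 the RUNX motif, 1 the GATA motif AGATAA and 0 the TATA box TATAAA. Among all 32851 windows of this length, 51.4% held the E-box, 71.4% the ETS core, 16.8% the RUNX motif, 11.2% the GATA motif and 13.6% the TATA box. A match describes letters in a window and not a bound site.

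The arrays of Mim2-2 and Mim2-3 stood apart from the others. They correlated with the other 6 at r = 0.811 to 0.877 over 44170 features, where those 6 correlated with each other at 0.911 to 0.943. A mammary epithelium list of 12 genes had mean log2 intensities of 10.7, 11.1, 7.93 and 8.66 in Mim1-5, Mim1-6, Mim2-2 and Mim2-3, against 10.8 to 11.3 on the wild-type arrays, although the tissue is labelled spleen. The labelled sexes were not separated by Xist, with means of 9.95 in labelled males and 10.1 in labelled females, or by the Y-linked gene Ddx3y, with 7.75 and 7.82. Both genes differed between the genotypes instead, Ddx3y averaging 8.66 in knockout spleens, against 6.91 in wild-type spleens, and Xist averaging 9.52 in knockout spleens, against 10.6 in wild-type spleens. The part of this in the differences below was not tested. A feature annotated as BIC, the noncoding host transcript of miR-155, read 7.51, 5.37, 5.28 and 5.46 in knockout spleens, against 5.27, 4.84, 4.85 and 5.63 in wild-type spleens, beside 4.94 to 5.24 for the arrays' random probes, which match no transcript and give the background level. Its position relative to the deletion is unknown, so it does not check the genotype. Because the labelled sex in the knockout coincides with the Mim1 and Mim2 names, a difference between the sexes and one between these pairs of arrays cannot be told apart.

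All 9 genes read higher on average in knockout than in wild-type spleens, as did 53.9% of all genes, by 0.02 to 1.42 on the log2 scale, with a median of 0.78. Cd2 had the largest difference, and Cd28 and Lat the smallest. None passed the threshold of 0.05 after adjustment over all 44170 features, and neither did any other feature (limma, 0% called). Before adjustment 6122 features, 13.9%, were under 0.05, 6.98% higher and 6.88% lower, and a trend and robust variance model in limma passed 16 features after adjustment, none of them the brightest feature of a member. At an unadjusted p under 0.05 in limma, 5 of the 9 members lay higher and 0 lower. By the same rule 7.7% of all genes lay higher and 6.62% lower. In 4 of the 9, every knockout array lay above every wild-type array, which held for 5.27% of all genes, and in 0 of the 9 did every knockout array lie below, which held for 2.56%. The median difference over all genes was 0.06. Simulated differences somewhat larger than the members' median were not called by this fit either, so a missed threshold does not show equal levels. In whole spleen RNA, more or fewer T cells and more or less RNA per T cell cannot be told apart. Nor can either be told apart from a different share of other tissue, such as mammary epithelium, whose genes were bright on these arrays.

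**Figure D1:**
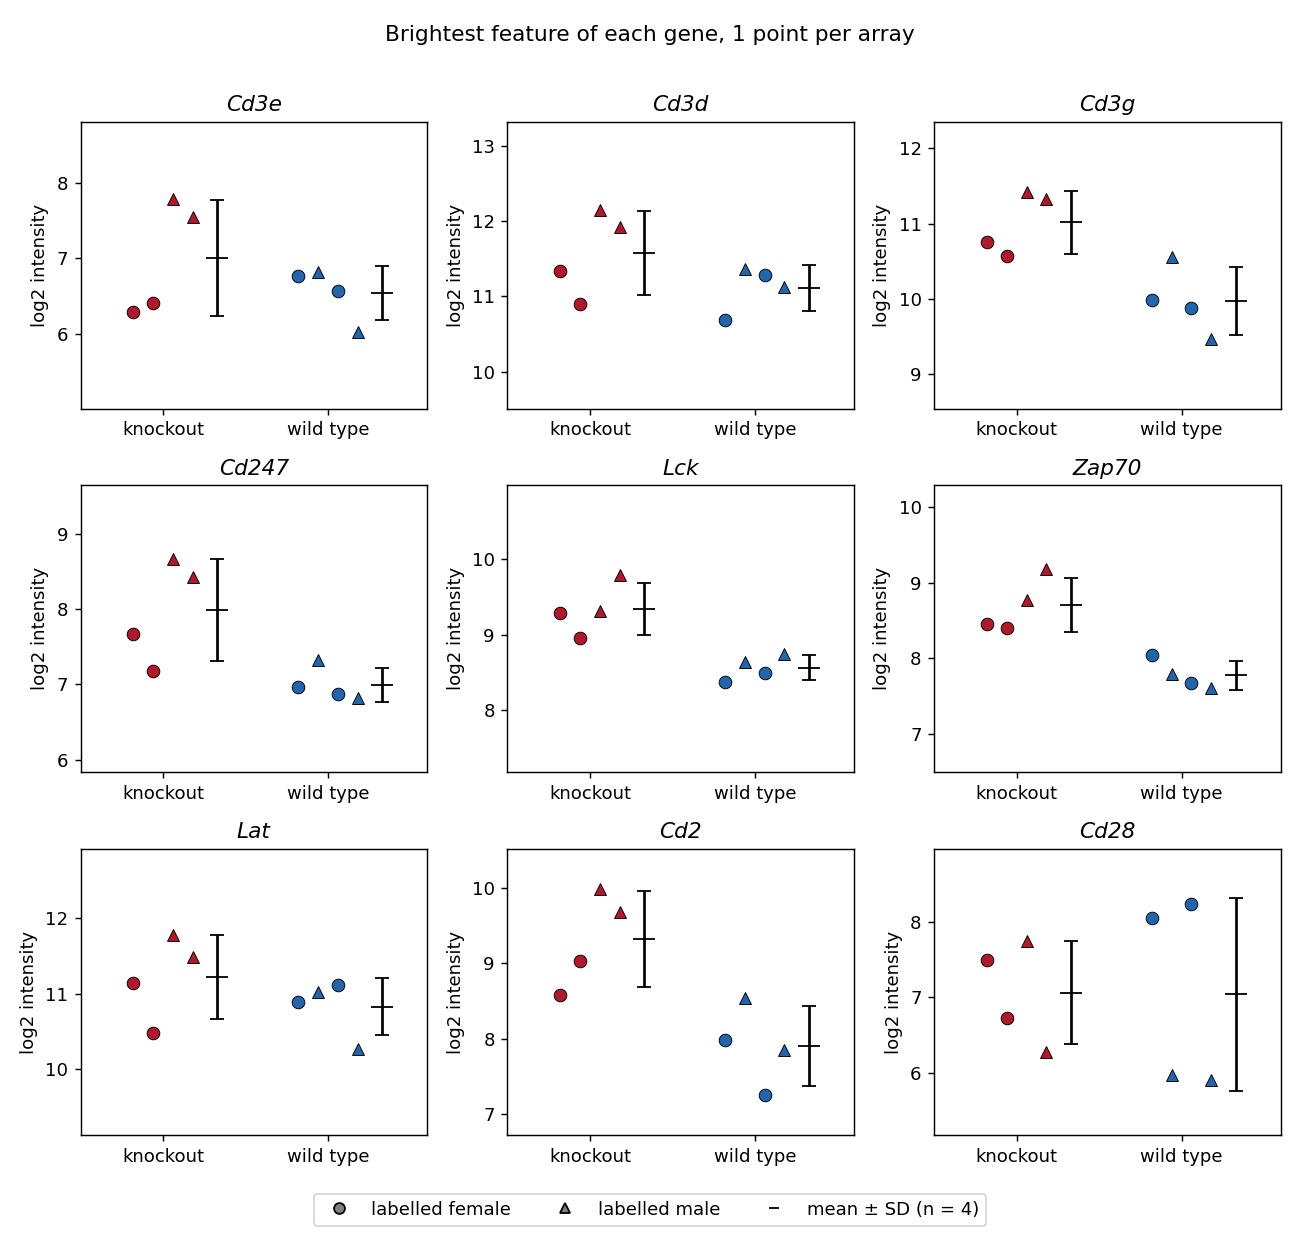
Log2 intensity (vertical axis) of the brightest feature of each gene, 1 point per array, with knockout arrays left of wild-type arrays, circles for labelled females, triangles for labelled males, and the mean ± SD (n = 4) beside each group. The groups do not overlap for Cd3g, Lck, Zap70 and Cd2, while for Cd28 the wild-type arrays lie at both ends of the range.

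The chains of the CD3 complex come first. Cd3g, the gamma chain, is measured by 1 feature (MM9 chromosome 9, 44777828 to 44788445). It had log2 intensities of 10.75, 10.57, 11.42 and 11.32 in Mim1-5, Mim1-6, Mim2-2 and Mim2-3, against 9.99, 10.56, 9.88 and 9.47 in WT-1 to WT-4. The groups did not overlap, although Mim1-6 and WT-2 were almost level. The means were 11.02 ± 0.42 in knockout spleens, against 9.97 ± 0.45 in wild-type spleens (SD, n = 4 each), a difference of 1.04 ± 0.33 (SE) or 2.06-fold (limma, adjusted p = 0.285, unadjusted p = 0.0107).

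Cd3d, the delta chain and divergent neighbour of Cd3g, is measured by 1 feature (MM9 chromosome 9, 44789963 to 44794504). It read 11.34, 10.91, 12.14 and 11.92 in knockout spleens, against 10.68, 11.37, 11.28 and 11.13 in wild-type spleens. Only Mim2-2 and Mim2-3 lay above all wild-type arrays, and the groups overlapped. The difference was 0.46 with a 95% interval from -0.22 to 1.14 (limma, adjusted p = 0.515).

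Cd3e, the epsilon chain, which pairs with the gamma and delta chains (MM9 chromosome 9, 44807549 to 44817673), read 6.29, 6.41, 7.79 and 7.55 in knockout spleens, against 6.76, 6.81, 6.56 and 6.03 in wild-type spleens. Both Mim2 arrays lay above all wild-type arrays, and both Mim1 arrays lay below 3 of the 4 wild-type arrays. The difference over the 8 arrays was 0.47 ± 0.39 (SE; limma, adjusted p = 0.607). It was 0.15 without WT-4 and 0.26 without Mim2-2. Without both Mim2 arrays it was -0.31 ± 0.41, the other way.

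Cd247 encodes the zeta chain, which carries most of the signalling motifs of the complex and also serves receptors of NK cells. Its brightest feature (MM9 chromosome 1, 167718853 to 167792200) read 7.67, 7.18, 8.66 and 8.43 in knockout spleens, against 6.96, 7.32, 6.87 and 6.82 in wild-type spleens. Of the knockout arrays, 3 lay above all wild-type arrays and Mim1-6 lay below WT-2. The difference was 0.99 ± 0.32 (SE), or 1.99-fold (limma, adjusted p = 0.289, unadjusted p = 0.0125). The gene has 4 further features, whose differences varied. One that matches a variant called kappa differed by 0.31, and the other 3 differed by 0.39, 0.07 and -0.71, each of them at or under the random probes on some arrays.

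Among the kinases, Lck, which starts the signal, had its brightest feature on MM9 chromosome 4 from 129234057 to 129235616. This feature read 9.29, 8.96, 9.32 and 9.80 in knockout spleens, against 8.37, 8.64, 8.49 and 8.74 in wild-type spleens. Every knockout array was higher, with a gap of 0.78 ± 0.27 (SE) between the means (limma, adjusted p = 0.300, unadjusted p = 0.0175). The second Lck feature differed by 0.61 ± 0.29, also without overlap.

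Zap70 encodes the kinase that docks on the phosphorylated chains. Its brightest feature comes from a clone of a truncated ZAP kinase (MM9 chromosome 1, 36836498 to 36839661). It read 8.45, 8.41, 8.77 and 9.18 in knockout spleens, against 8.04, 7.79, 7.67 and 7.61 in wild-type spleens, without overlap. The difference was 0.93 ± 0.29 (SE), or 1.9-fold (limma, adjusted p = 0.286). The feature of the complete coding transcript did not show it. That feature read 7.14, 5.91, 6.77 and 5.71 in knockout spleens, against 6.05, 6.46, 6.58 and 6.47 in wild-type spleens, a difference of -0.01 with a 95% interval from -0.88 to 0.86. A further feature, from another truncated clone, differed by 0.68 ± 0.34, and it was under the random probes in WT-1.

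Lat, the adaptor on which the downstream enzymes gather, has 2 features that span almost the same stretch of MM9 chromosome 7. The brighter one (133507341 to 133513009) read 11.15, 10.48, 11.77 and 11.49 in knockout spleens, against 10.90, 11.03, 11.11 and 10.27 in wild-type spleens, and the groups overlapped. It differed by 0.40 ± 0.36 (SE; limma, adjusted p = 0.646). The dimmer one read 10.66, 9.64, 10.85 and 10.63 in knockout spleens, against 9.78, 9.46, 9.58 and 8.06 in wild-type spleens, a difference of 1.22 ± 0.46 (limma, adjusted p = 0.315). WT-4 was the lowest array for both. Without it the brighter feature differed by 0.13.

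Cd2, the adhesion receptor, which in mice is carried by B cells as well as T cells, is measured by 1 feature (MM9 chromosome 3, 101079821 to 101091833). It read 8.59, 9.03, 9.99 and 9.68 in knockout spleens, against 7.99, 8.54, 7.25 and 7.85 in wild-type spleens. The groups did not overlap, with Mim1-5 just above WT-2. The means were 9.32 ± 0.63 in knockout spleens, against 7.91 ± 0.53 in wild-type spleens (SD, n = 4 each), a difference of 1.42 ± 0.32 (SE) or 2.67-fold (limma, adjusted p = 0.262, unadjusted p = 0.00168). Without both Mim2 arrays the difference was 1.19, and Cd2 was then the only member higher at an unadjusted p under 0.05.

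Cd28, the costimulatory receptor, gave readings that depended on the feature. The brightest one (MM9 chromosome 1, 60803311 to 60821470) comes from a neonatal thymus clone and read 7.50, 6.73, 7.75 and 6.27 in knockout spleens, against 8.05, 5.98, 8.24 and 5.90 in wild-type spleens. The other (60803317 to 60827403) comes from a clone of the complete coding sequence and read 6.60, 6.93, 7.05 and 7.76 in knockout spleens, against 6.22, 7.87, 5.55 and 8.21 in wild-type spleens. On the wild-type arrays the thymus clone feature was high in WT-1 and WT-3, and the coding clone feature was high in WT-2 and WT-4. On 6 of 8 arrays the 2 features lay on opposite sides of their own means. Their average per array stayed between 6.83 and 7.40, whereas single readings ran from 5.55 to 8.24. WT-1 and WT-3 are labelled female and WT-2 and WT-4 male, but the knockout arrays did not divide in this way, with the thymus clone feature on top in Mim1-5 and Mim2-2. The genotypes differed by 0.02 ± 0.51 for the thymus clone feature and by 0.13 ± 0.40 for the coding clone feature (limma, adjusted p = 0.990 and 0.913). These 2 intervals, from -1.13 to 1.17 and from -0.77 to 1.02, leave room for a difference in either direction.

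**Figure D2:**
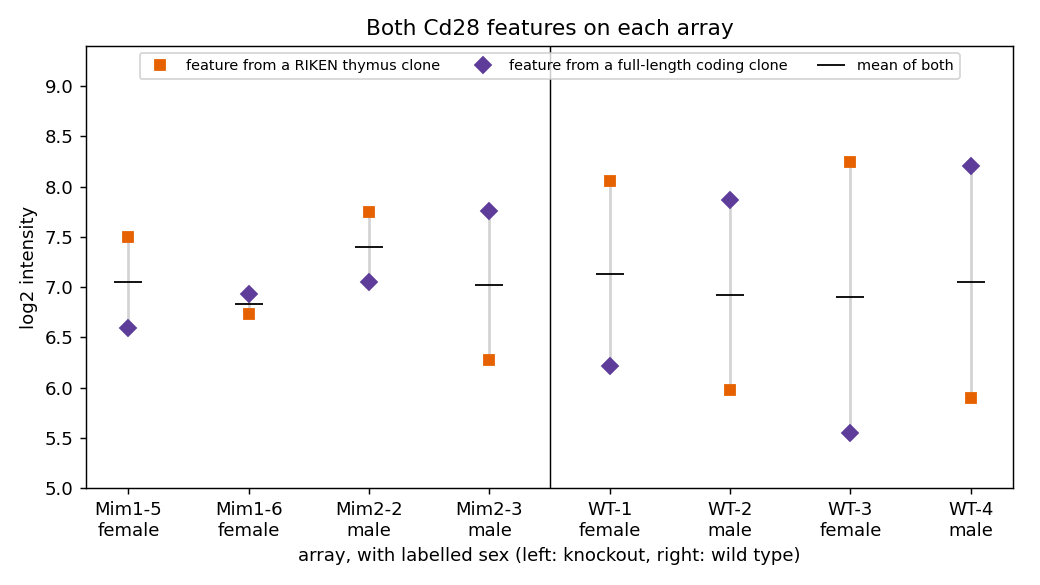
Log2 intensity of the 2 Cd28 features on each array (squares, the neonatal thymus clone; diamonds, the complete coding clone; short lines, their mean), with knockout arrays on the left and wild-type arrays on the right. The 2 features trade places from array to array while their mean stays between 6.83 and 7.40.

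The knockout difference was larger in labelled males than in labelled females for the brightest feature of all 9 genes, although no test of this contrast passed. The share of all genes with a larger difference in males is not given here. The median difference was 1.25 in labelled males and 0.51 in labelled females, against 0.15 and 0.03 over all genes. Males, females and sexes below are those of the labels, which Xist and Ddx3y did not separate. All 9 genes were above 0 in males and 6 in females, where Cd3e, Lat and Cd28 were at -0.31, -0.19 and -1.04. Within males, 6 of the 9 were higher at an unadjusted p under 0.05, with 12.3% of all genes so called, and within females 1 was, with 2.3% so called. After adjustment 0 of the 9 passed within males, where 4.26% of all genes did in either direction and 1.05% did as higher in the knockout. The difference between the sexes was 1.56 ± 0.56 (SE) for Cd3e and 2.11 ± 0.76 for the brightest Cd28 feature (limma interaction, adjusted p = 0.296 and 0.300). These were the 2 members at an unadjusted p under 0.05 in that contrast, which 5.93% of all genes reached in the same direction. For Lck it was 0.17 ± 0.51. Some dimmer features went the other way. The coding clone feature of Cd28 was at -1.51 ± 0.61, Zap70 features at -0.43 and -0.72 and a Cd247 feature at -0.59. The remaining dimmer features were above 0.

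**Figure D3:**
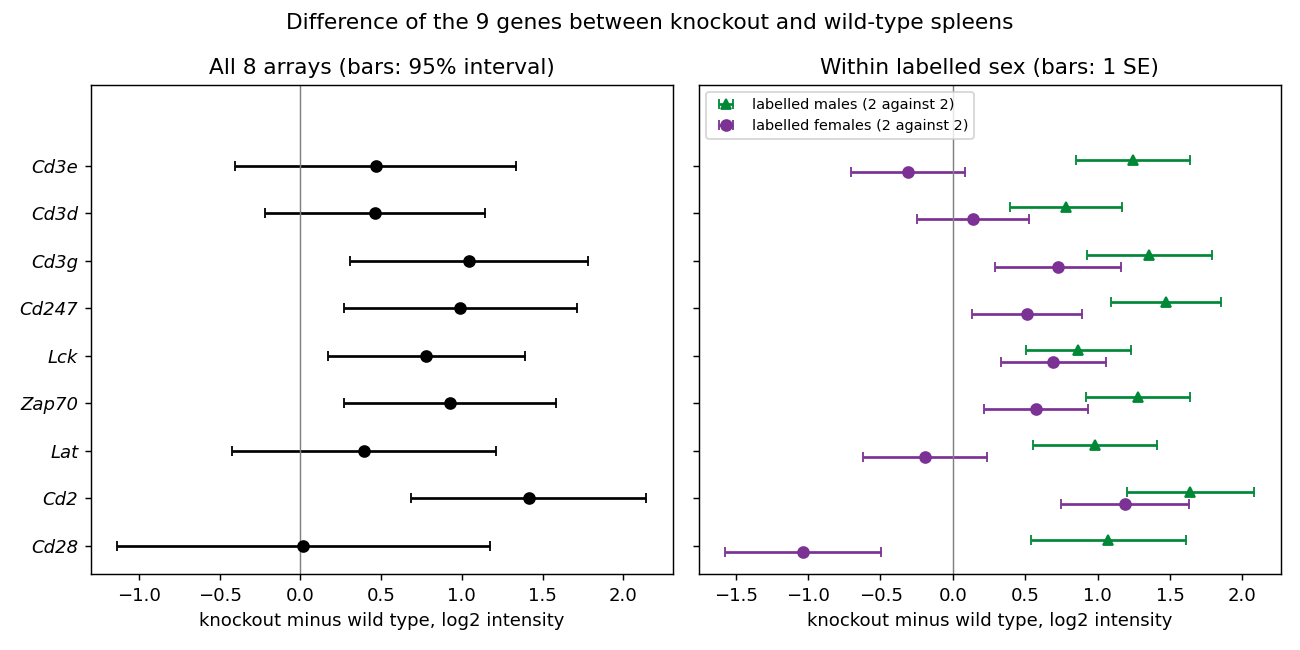
Knockout minus wild-type difference in log2 intensity (horizontal axis) for the brightest feature of each gene, over 8 arrays with 95% intervals on the left, and within labelled males (triangles) and labelled females (circles) with 1 SE on the right. Cd3e, Lat and Cd28 are below 0 in females and above 0 in males, and Lck differs least between the sexes.

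Without both Mim2 arrays, the fit keeps its sex term, so each difference is that of the 2 knockout females from WT-1 and WT-3. The differences are therefore those within females given above, and the median of the 9 genes was 0.51. Then 6 of 9 were above 0, and 1 was higher at an unadjusted p under 0.05, beside 2.76% of all genes. The brightest Cd28 feature was lower at that level, with a difference of -1.04 ± 0.40 (limma, adjusted p = 0.807). The coding clone feature of Cd28 differed the other way within labelled females, by 0.88 ± 0.43. Both remaining knockout arrays lay above all 4 wild-type arrays for 4 of 9 genes, beside 9.25% of all genes.

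Marker lists of other cell types also differed between the arrays, and 0 of their genes passed the adjusted threshold. Averaged over the 9 genes after centring each on its own mean, Mim2-2 and Mim2-3 stood at 0.85 and 0.63, and Mim1-5 and Mim1-6 at 0.11 and -0.15, against -0.69 to -0.22 over the wild-type arrays. A list of other T cell genes, 9 of 13 measured and all above the random probes on all 8 arrays, had a median difference of 0.56, with 7 higher and 2 lower. It held Bcl11b at 1.43, Il7r at 1.17, the receptor gene Tcra at 0.56 and Thy1 at 0.18. The 2 lower genes were Ccr7 at -0.55 and Gata3 at -1.23, the latter a factor that mammary epithelium expresses too. The list of 12 B cell genes had a larger median difference, 1.33, with 11 higher and 1 lower, and its mean was 9.60 to 10.6 in knockout spleens, against 8.47 to 8.97 in wild-type spleens. All 9 NK cell genes were higher, with a median of 0.67 and list means of 8.28 to 9.08 in the knockout against 7.53 to 8.26 in the wild type. Of 10 macrophage genes 9 were higher, with a median of 0.80. Within labelled females the medians were 0.17 for other T cell, 0.87 for B cell, 0.41 for NK cell and 0.08 for macrophage genes. Within labelled males they were 1.01, 1.76, 0.96 and 0.83, in that order.

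Of the other lists, erythroid genes were lower in 7 of 8 (median -0.60) and neutrophil genes in 6 of 8 (median -0.46). The erythroid list averaged 10.3 in Mim1-5 and in Mim1-6, 11.1 and 11.5 in Mim2-2 and Mim2-3, and 11.2 to 11.5 in wild-type spleens. Within labelled females the medians were -1.19 for erythroid and -0.96 for neutrophil genes, against -0.06 and -0.12 within labelled males. Mammary epithelium genes were lower in 11 of 12 (median -1.63) and milk protein genes in 8 of 8 (median -2.5), and the milk protein list had means of 7.48 to 9.18 in knockout spleens, against 10.4 to 11.0 in wild-type spleens. Pancreas genes were higher in 8 of 9 (median 1.59), with list means of 6.90 to 7.85 over the knockout arrays, against 5.47 to 5.92 over the wild-type arrays. Above the random probes on all 8 arrays were 4 of 9 pancreas, 5 of 8 milk protein, 5 of 8 neutrophil and 9 of 12 mammary epithelium genes. For the 6 adipocyte genes the arrays of Mim2-2 and Mim2-3 averaged 10.9 and 10.6 and those of Mim1-5 and Mim1-6 averaged 7.62 and 7.77, against 7.86 to 8.11 over the wild-type arrays. With the mean of the mammary epithelium list as a further term, the median of the 9 genes was 0.42, and 1 of 9 was higher at an unadjusted p under 0.05. After centring, that list mean was -2.40 and -1.67 in Mim2-2 and Mim2-3, against 0.37 to 0.97 on the other arrays. The term therefore cannot be told apart from other traits of that pair of arrays. The part of these other tissues in the differences of the 9 genes was not tested.

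**Figure D4:**
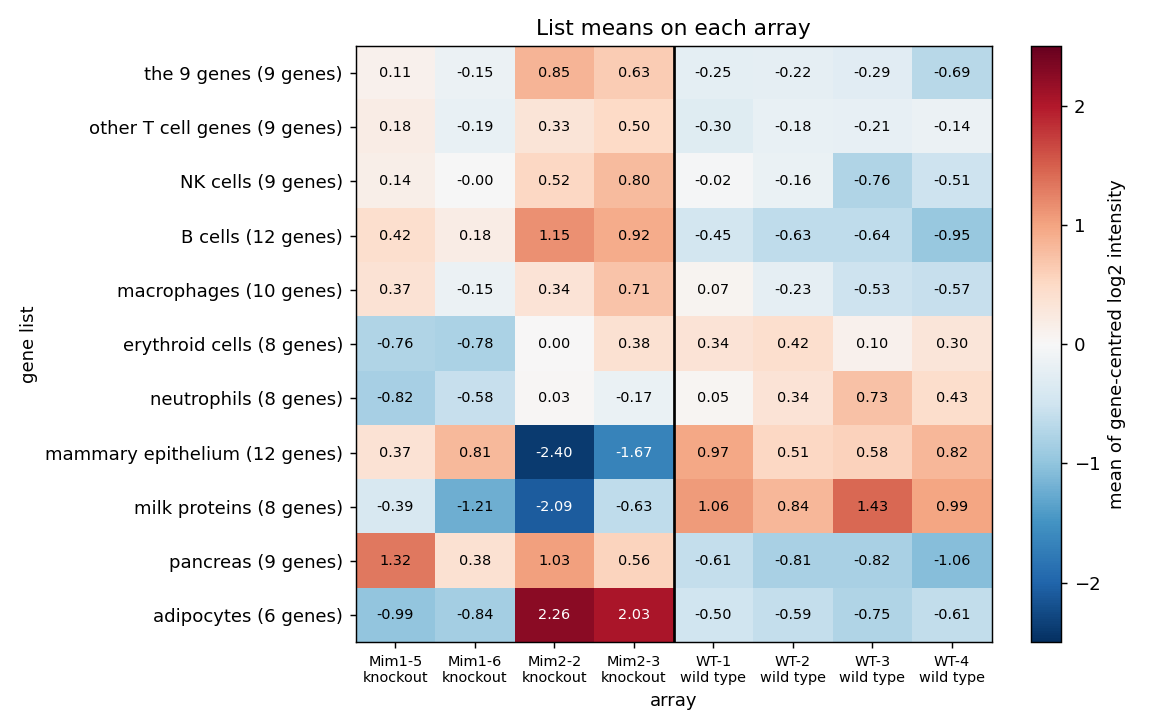
Mean log2 intensity of each gene list on each array after centring every gene on its mean over the 8 arrays (colour and printed value), with knockout arrays left of the line and wild-type arrays right of it. The 9 genes and the B cell list are highest in Mim2-2 and Mim2-3, where the mammary epithelium list is lowest.

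The 9 genes were also set against other lists by subtracting the list mean on the same array, which moves the difference of every gene by the same amount. Both lists averaged higher in the knockout (8.94 against 8.53 for other T cell genes, 10.1 against 8.75 for B cell genes). Smaller or opposite values therefore follow from the setting. Relative to the list of other T cell genes, the median difference of the 9 was 0.37, with 7 above 0, and the median of all genes was -0.35. Cd2 was then higher at an unadjusted p under 0.05 by 1.0 ± 0.36 (limma, adjusted p = 0.194), beside 1.54% of all genes. Relative to the B cell list the median was -0.56 and Cd2 was the only member above 0, at 0.08. On that scale Cd3e, Cd3d, Lat and Cd28 had differences of -0.87, -0.88, -0.94 and -1.32 (limma, adjusted p = 0.0403, 0.0413, 0.0303 and 0.0244). The same scale moved the median of all genes to -1.28 and called 63.8% of all features lower, so these 4 calls are not particular to the 9 genes.

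The pathway around the receptor was followed with 63 further genes measured of 64 listed, in 5 role groups. Of them 50 were higher and 13 lower in the knockout, with a median of 0.67 and a range from -1.18 to 2.07, and 0 passed after adjustment. At an unadjusted p under 0.05 in limma 27 were higher and 4 lower, beside 7.7% and 6.62% of all genes. Without both Mim2 arrays these counts were 7 and 2, with a median of 0.36. Many of these genes also work in B cells, whose list is given above.

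Among co-receptors and costimulatory receptors, 10 of 11 were higher, 3 of them at an unadjusted p under 0.05. Cd48, a ligand of CD2 in mice, read 10.5 ± 0.68 in knockout spleens, against 8.81 ± 0.51 in wild-type spleens, and the phosphatase Ptprc (CD45), which activates LCK and is found on all white cells, read 9.73 ± 0.68 in knockout spleens, against 8.53 ± 0.26 in wild-type spleens (SD, n = 4 each). Among kinases and lipid enzymes, 4 of 10 were higher and 1 lower at that level. Prkcb, the protein kinase C of B cells, differed by 1.44 ± 0.30 (SE) and Prkcq, its T cell counterpart, by 1.12 ± 0.35. Dgkz, which removes the lipid messenger diacylglycerol, differed by -1.18 ± 0.50, with 11.5 and 11.1 in the arrays of Mim1-5 and Mim1-6, 8.86 and 10.02 in Mim2-2 and Mim2-3, against 11.1 to 11.9 in wild-type spleens.

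Among adaptors and exchange factors, 7 of 17 were higher and 2 lower at an unadjusted p under 0.05. Tespa1, which aids receptor signalling in thymocytes, differed by 1.47 ± 0.29 and the membrane adaptor Lax1 by 1.23 ± 0.28. Nck1 differed by -1.11 ± 0.47, with 8.11 and 7.69 in Mim1-5 and Mim1-6, 5.72 and 6.21 in Mim2-2 and Mim2-3, against 7.49 to 8.41 in wild-type spleens. Sh2d1a, the adaptor SAP, averaged 4.90 in knockout spleens, where only 1 of 4 arrays exceeded its random probes, against 6.07 in wild-type spleens, which leaves the size of the gap open to the background level. In the downstream group of NF-kB signalling, calcium entry and NFAT, 6 of 10 were higher and 1 lower at that level. Malt1, a protease of NF-kB signalling, differed by 2.07 ± 0.34, with 10.6, 10.2, 10.9 and 10.9 in knockout spleens, against 8.95, 9.04, 8.33 and 8.01 in wild-type spleens. The calcium channel Orai1 differed by -0.94 ± 0.34.

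Among inhibitors of the signal, 7 of 15 were higher at an unadjusted p under 0.05 and 0 lower. Pag1, which anchors the inhibitory kinase CSK, differed by 1.29 ± 0.30 and the adaptor Sla2, which lowers surface receptor, by 1.42 ± 0.36. The limma adjusted p of these named pathway genes lay between 0.262 and 0.350.

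**Figure D5:**
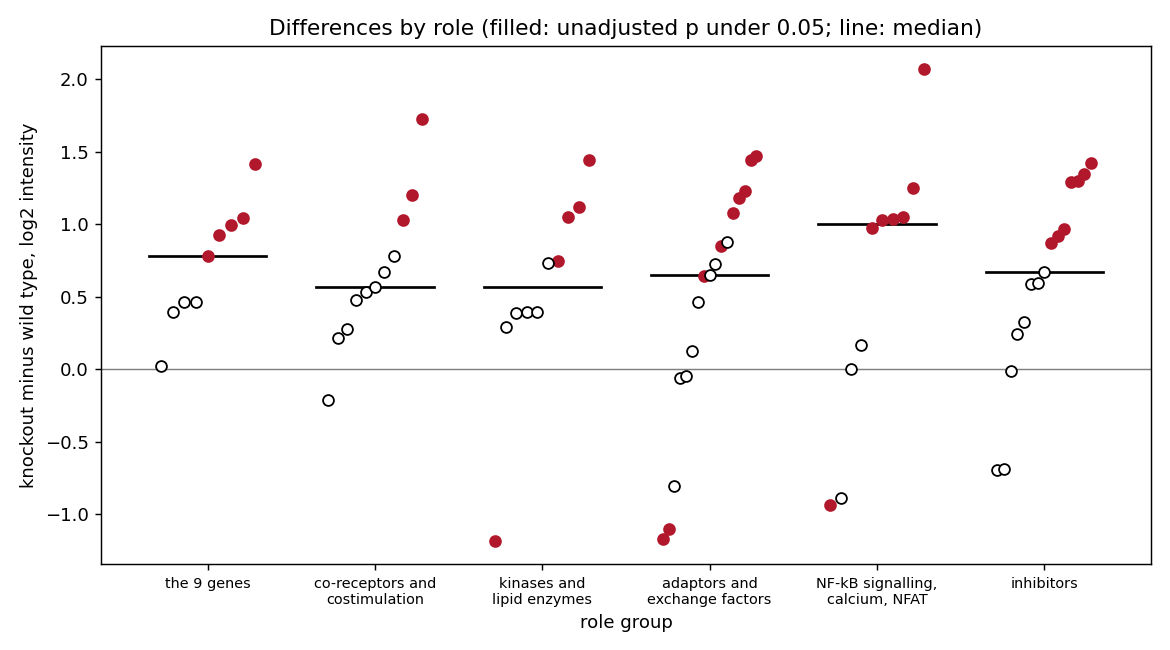
Knockout minus wild-type difference in log2 intensity (vertical axis) for the 9 genes and for the other pathway genes by role group, 1 point per gene, filled at an unadjusted p under 0.05 and open otherwise, with the group median as a line. The group medians lie between 0.56 and 1.0, with 0.67 for the inhibitors.

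The profile of the 9 genes over the arrays was set against that of other genes. Among 15818 other genes above the random probes on all arrays, 4 of the 5 closest to the average centred profile of the 9, by root mean square difference over 8 arrays, were Snord35a (0.0891), Chst15 (0.0943), Btf3l4 (0.103) and Snhg12 (0.107). Chst15 encodes a sulfotransferase, and Snord35a is a small nucleolar RNA. None of the 9 genes was as close to that average as these, Lat being nearest at 0.226 and Cd28 farthest at 0.927. The compared genes were picked as the closest of all searched, so this does not show how alike the 9 are. There were 433 other genes closer than Lat and 12072 closer than Cd28.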

How the data were processed

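Total RNA of 8 spleens, 4 of each genotype, was hybridised by NimbleGen to 1-colour arrays labelled with Cy3, per the labels' protocols. The deposited intensity values were made by the authors with RMA (background correction, normalization between arrays, summary per feature), per the submitters' processing notes, and 44155 features held 3 probes, per the file headers. The authors' deposited score of error per feature was not used. The intensity was turned to log2 here, with no offset added. An entry of 5000 random probes gave each array's background level. Positions are MM9, per the file headers. Of 24203 gene numbers, 21583 matched the RefSeq table of GRCm38.p6, and others kept the file's symbol.

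Genotype and labelled sex were fitted in limma (version 3.58.1, under R 4.3.3). Tests were two-sided, and p-values were adjusted by the Benjamini-Hochberg method over 44170 features (threshold 0.05). An interaction term compared the labelled sexes. A gene is represented by its brightest feature over the 8 arrays. The labels describe separate mice. The number of arrays limits the precision. The fit was tested on simulated data, and the noise model of that simulation was revised once, after its first version had missed the recovery aimed for. All members were named, and of the pathway lists up to 2 genes per role group in each direction with the smallest p under 0.05. Of the genes these rules name, 2 are not reported here. The members and lists were chosen with earlier results of these data known. Alternatives changed the value table, normalization, filter, floor, variance model, array weights, features, covariates and arrays.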

Additional observations from a re-analysis of the deposited data

Results flagged for a closer look

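One feature of Cd247, from a testis clone, read 7.67 on the WT-3 array, far above the other wild-type arrays at 5.07 to 5.48. It was 1 such case among 36 groups of 4 arrays examined, and chance gives about 1 in 20. For Cd3e every male knockout array lay above and every female knockout array below the wild-type arrays of the same labelled sex, with a male minus female difference of 1.56. The brightest Cd28 feature did the same, with 2.11. The interaction was tested for both in limma and did not pass (adjusted p = 0.296 and 0.300).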

How the results depend on the processing

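No paired analysis was possible because the replicate numbers were given in accession order and the animals' names share no numbering between the genotypes. Of the differences of single members, 169 values kept their direction and side of the threshold and 20 reversed; of the interactions 124 did and 1 reversed. The count of features past the threshold was 0 and became 16 (7 higher, 9 lower) with a trend and robust variance model. The median of the 9 genes, 0.78, was 0.42 with the mammary epithelium term, 0.37 relative to the T cell list and -0.56 relative to the B cell list (0.67 to 0.86 leaving out 1 array). Values relative to a list shift every gene by the same amount, with medians over all genes of -0.35 and -1.28. The count of members higher at an unadjusted p under 0.05, 5, was 1 without both Mim2 arrays, 1 with the mammary term, 1 relative to the T cell list, 0 relative to the B cell list and 3 with the mean of all features. The pathway median, 0.67, was 0.36, 0.39, 0.26 and -0.67 under those first 4 alternatives and 0.91 with the feature of smallest p (0.54 to 0.84 leaving out 1 array). The count of pathway genes higher, 27, was 7, 8, 12 and 0 under them (21 to 31 leaving out 1 array). The count lower, 4, was 2 with array weights, 2 without both Mim2 arrays, 1 with the mammary term, 26 relative to the B cell list and 1 with the mean of all features (0 to 7 leaving out 1 array: 2 without Mim1-5, 7 without Mim1-6, 1 without Mim2-2, Mim2-3 or WT-4, and 0 without WT-2).

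Without both Mim2 arrays Cd3e was at -0.31, Lat at -0.19 and the brightest Cd28 feature at -1.04, which repeats the differences within females. With the mammary term these were -0.37, -0.35 and -1.33. Relative to the T cell list, which moved the median of all genes to -0.35, Lat was at -0.018 and Cd28 at -0.39. Relative to the B cell list, with all genes at -1.28, the values were -0.87 for Cd3e, -0.88 for Cd3d, -0.30 for Cd3g, -0.35 for Cd247, -0.56 for Lck, -0.41 for Zap70, -0.94 for Lat and -1.32 for Cd28. Cd28 was at -0.10 with array weights and between -0.49 and 0.38 leaving out 1 array. The interaction of Lck ran from -0.067 to 0.41 leaving out 1 array. The causes were not tested. Leaving out 1 array, the difference of Cd3e ran from 0.15 without WT-4 to 0.66 without WT-1. Lat's difference was 0.13 without WT-4, 0.22 without Mim2-2 and 0.65 without Mim1-6. Features near the random probes limit what can be said of Sh2d1a, of 3 Cd247 features, of 1 Zap70 feature and of the pancreas, milk protein and neutrophil lists.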
